A study of Mus musculus with 6 samples.

Results

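The 10 genes described here encode the apolipoproteins of lipid-carrying particles and the enzymes that build and load their triglyceride. They are *Apoa1*, *Apoa4*, *Apoc3*, *Apob*, *Apobec1*, *Mttp*, *Mogat2*, *Dgat1*, *Dgat2* and *Apoe*, chosen by name and function from the 17778 genes listed for each mouse. All 10 had a row in the expression table. RNA came from the colon of 3 obesity-prone (OP) and 3 obesity-resistant (OR) mice. All 6 were adult wild-type male C57BL/6J mice that had eaten a high-fat diet (HFD) for the same time. Among the mice fed the HFD, those with the highest weight gain were defined as OP and those with the lowest as OR, so the groups differ in weight gain and not in genotype, diet or treatment. Colon RNA of mice on a normal diet was not analysed here. Each value below is in FPKM (fragments mapped per unit of transcript length, scaled to the library), a level per length that can be set side by side between genes.

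In absorptive cells of the gut, fatty acids are rebuilt into triglyceride at the endoplasmic reticulum. MOGAT2 joins a fatty acid to monoacylglycerol, and the enzymes DGAT1 and DGAT2 complete the triglyceride. The microsomal transfer protein MTTP loads this lipid onto apolipoprotein B, and APOBEC1 edits the *Apob* transcript so that the gut makes the short form of the protein. Apolipoproteins A-I, A-IV and C-III ride on the finished chylomicron. Apolipoprotein E, a ligand of lipoprotein receptors, is also made in quantity by macrophages. Chylomicrons are assembled above all in the small intestine, and the colon is a minor site.

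The 6 libraries did not stand alike. The FPKM values of a mouse summed to between 585350 and 600028, and genes above 0 numbered from 16287 to 16619, while the number of reads is unknown. OP mouse 2 stood apart in genes of gut position. *Hoxb13*, a homeobox gene of the most distal gut, was at 46.88 FPKM in OP mouse 2 and between 0 and 1.29 in the other 5 mice. *Slc10a2*, the ileal bile acid transporter, was at 1.03 FPKM in OP mouse 2 and between 37.05 and 88.76 in the others. Whether the sampled stretch of colon differed was not tested. Some of the results below, but not all, are given with and without OP mouse 2. The 14 epithelial markers summed to between 12086 and 15695 FPKM in OP mice and between 11909 and 14814 in OR mice. The 10 markers of small-intestinal enterocytes summed to between 347 and 747 FPKM in OP mice and between 411 and 669 in OR mice, led by *Mep1a*, a brush-border protease at 232.21 to 487.9 FPKM, and 1 of them, the lactase gene *Lct*, was under 1 FPKM in all 6 mice. Of the 8 hepatocyte markers with a row, which summed to between 21.4 and 86.6 FPKM, 4 were under 1 FPKM in all 6 mice, *Alb* among them at 0.72 or lower, while *Tat* reached 31.3 and *Cyp2e1* 62.99 FPKM. The part of these markers in the results below was not tested. Fewer cells of a type and less RNA per cell cannot be told apart in RNA from whole colon.

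The 10 genes spanned a wide range of levels in the colon. *Apoe* had the highest mean over the 6 mice, 181 FPKM, followed by *Dgat2* at 102 FPKM, and *Apoe* was above *Dgat2* in 5 of 6 mice. *Apob* at 33.8 FPKM, *Dgat1* at 32.2 and *Apobec1* at 27.7 formed a middle tier. Neighbours in this tier did not keep one order, since *Apob* exceeded *Dgat1* in 3 of 6 mice and *Dgat1* exceeded *Apobec1* in 4 of 6. *Mogat2* followed at 4.63 FPKM, and its range did not overlap that of *Apobec1*. *Apoa1* averaged 1.71 FPKM, *Apoa4* 0.855, *Mttp* 0.843 and *Apoc3* 0.327. The mean of *Apoa4* stood above that of *Mttp* because of OP mouse 1, the only mouse in which *Apoa4* was the higher of the pair. The transfer protein gene *Mttp* was listed at 0.0131 to 0.0540 of the level of *Apob*, its lipid acceptor, in the same mice.

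**Figure D1:**
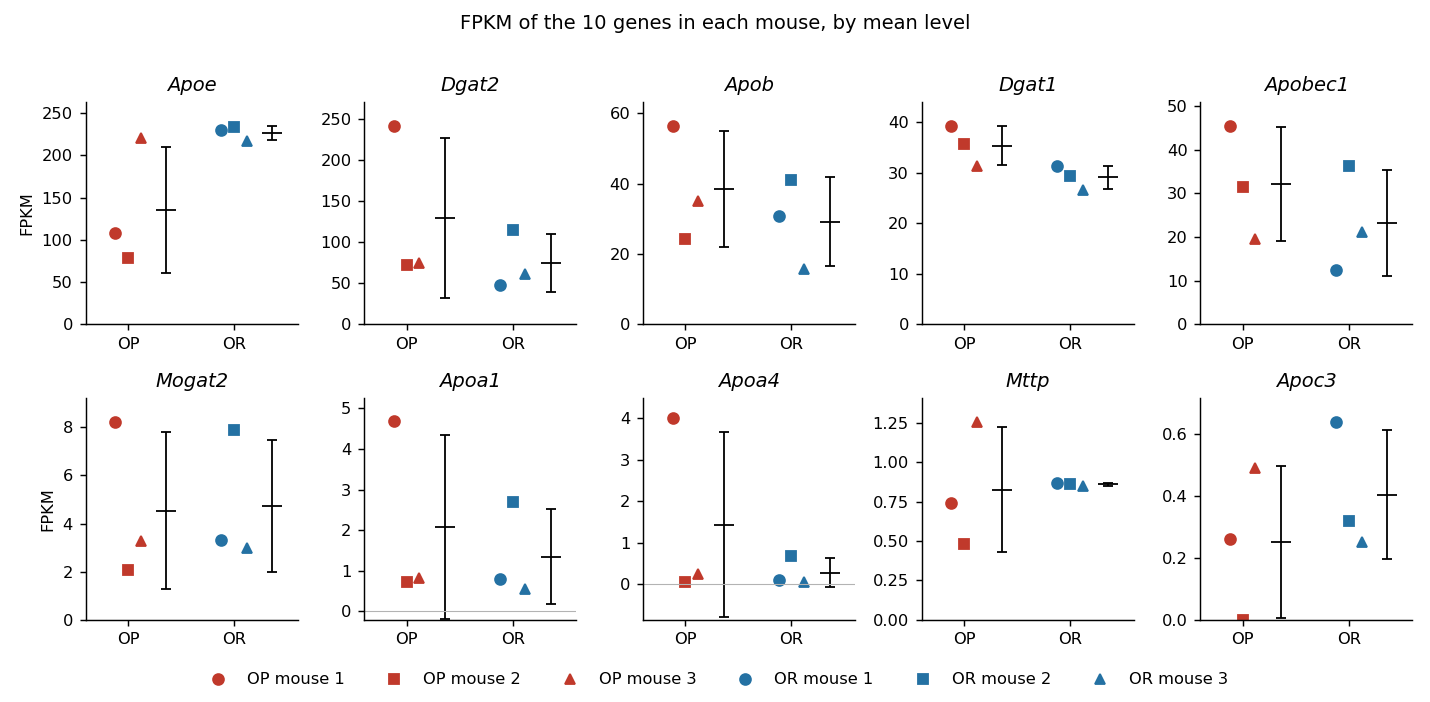
FPKM (linear axes, each gene on its own scale) of the 10 genes in OP (red) and OR (blue) mice, ordered by mean level. Points are single mice and bars are mean ± SD of 3 mice. OP mouse 1 is the highest mouse in 7 of the 10 panels.

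*Apoa1*, whose product is the main protein of high-density lipoprotein, and *Apoa4* peaked in the same 2 mice, which came from different groups. The levels of *Apoa1* were 4.70, 0.71 and 0.82 FPKM in OP mice 1, 2 and 3 and 0.79, 2.70 and 0.55 FPKM in OR mice 1, 2 and 3. The levels of *Apoa4* were 4.02, 0.05 and 0.24 FPKM in the OP mice, against 0.09, 0.68 and 0.05 FPKM in the OR mice. OP mouse 1 was highest and OR mouse 2 next in both genes, and the groups overlapped. The highest mouse exceeded the lowest 80.4 times for *Apoa4*, the widest spread of the genes above 0 in every mouse, and 8.55 times for *Apoa1*. For *Apoa1*, OP mice had 2.08 ± 2.27 FPKM (SD, n = 3) and OR mice 1.35 ± 1.18 FPKM (SD, n = 3), with a two-sided exact permutation p = 0.6. For *Apoa4* the means were 1.44 ± 2.24 and 0.273 ± 0.353 FPKM (SD, n = 3 each), with an exact permutation p = 0.7. The smallest p that 3 mice against 3 can give is 0.1. By limma across all genes tested, *Apoa1* had a log2 fold change (OP/OR, on log2(FPKM + 1)) of 0.26, with a 95% interval from -0.97 to 1.497 and an adjusted p of 0.957. Without OP mouse 1 the *Apoa1* estimate was -0.30. *Apoa4* lay below the filter on low values (at least 0.5 FPKM in at least 3 mice) and was not tested by limma.

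*Apoc3*, which encodes an inhibitor of lipoprotein lipase, lies between *Apoa1* and *Apoa4* on chromosome 9 in the RefSeq annotation and did not share their peaks. Its levels were 0.26, 0.00 and 0.49 FPKM in the OP mice, against 0.64, 0.32 and 0.25 FPKM in the OR mice. OR mouse 1 was highest, OP mouse 2 was listed at 0, and the groups overlapped. The means were 0.250 ± 0.245 FPKM in OP and 0.403 ± 0.208 FPKM in OR mice (SD, n = 3 each), with an exact permutation p = 0.5. *Apoc3* was also below the filter. At these levels, given to 2 decimals, rounding alone moves the ratios between mice.

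Because *Apoa1* and *Apoa4* moved together over the mice, their promoters are shown, with that of *Apobec1*, another gene whose highest mice were the same. RefSeq promoters (250 bases before to 50 after a start site) matched 6 of the 10 genes by symbol, and *Apoc3*, *Mogat2*, *Dgat1* and *Dgat2* had no entry in the table used. The *Apoa1* promoter is chr9:46228380-46228679 on the plus strand, the *Apoa4* promoter is chr9:46240594-46240893 on the plus strand and the *Apobec1* promoter is chr6:122602395-122602694 on the minus strand, all in GRCm38.p6. They are written 5′ to 3′ along the gene. Capitals mark matches to CAAAGNTCA, a piece of the direct-repeat element bound by HNF4 and related nuclear receptors, and to TATAAA, the TATA box, searched on both strands.
Apoa1: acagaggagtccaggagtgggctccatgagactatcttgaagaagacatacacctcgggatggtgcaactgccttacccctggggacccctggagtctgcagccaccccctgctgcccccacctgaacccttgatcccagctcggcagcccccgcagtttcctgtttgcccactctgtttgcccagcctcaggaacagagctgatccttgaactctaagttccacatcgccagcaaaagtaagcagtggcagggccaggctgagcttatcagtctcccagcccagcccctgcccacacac
Apoa4: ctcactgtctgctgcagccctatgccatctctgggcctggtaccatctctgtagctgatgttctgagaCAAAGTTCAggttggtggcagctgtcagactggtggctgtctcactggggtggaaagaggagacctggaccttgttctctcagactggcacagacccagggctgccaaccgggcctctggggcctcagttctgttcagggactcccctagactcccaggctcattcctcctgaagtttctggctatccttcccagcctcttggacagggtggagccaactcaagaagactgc
Apobec1: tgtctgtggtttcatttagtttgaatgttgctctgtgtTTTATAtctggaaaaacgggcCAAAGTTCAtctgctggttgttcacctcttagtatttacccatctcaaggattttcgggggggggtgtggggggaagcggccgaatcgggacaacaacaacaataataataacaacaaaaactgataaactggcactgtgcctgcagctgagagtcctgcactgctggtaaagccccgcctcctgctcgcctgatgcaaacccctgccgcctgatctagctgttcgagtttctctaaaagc
The letters CAAAGTTCA started at position -182 from the start site of *Apoa4* and at -191 from that of *Apobec1*. No match to either motif was in the *Apoa1* window, which says only that these letters are not there. CAAAGNTCA was found in 1.51% of the 32851 promoters in the RefSeq table. TATAAA, in 13.6% of them, was read on the opposite strand at -212 in *Apobec1*, on the gene's strand at -60 in *Apob*, and on both strands, overlapping, in 1 of 3 *Apoe* promoters. The cyclic AMP element core TGACGT, in 7.51% of promoters, was found in *Mttp*, on the opposite strand at -29. The *Mttp* promoter held 27 CpG and the *Apoa4* promoter 1, against a median of 7 over all promoters. The motifs were chosen after the sequences had been seen, the matches in the printed promoters do not overlap each other, and a match is not evidence of binding. *Hnf4a*, the gene of the nuclear receptor HNF4 alpha, ranged from 285.15 to 351.24 FPKM over the 6 mice.

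*Apob* encodes the structural protein of the chylomicron. Its levels were 56.47, 24.15 and 35.02 FPKM in the OP mice, against 30.72, 40.98 and 15.73 FPKM in the OR mice. OP mouse 1 and OR mouse 2 were again the highest, and the groups overlapped. The means were 38.5 ± 16.4 FPKM in OP and 29.1 ± 12.7 FPKM in OR mice (SD, n = 3 each), with an exact permutation p = 0.5. Limma gave a log2 fold change of 0.41, with a 95% interval from -0.53 to 1.35 and an adjusted p of 0.945.

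*Apobec1*, the cytidine deaminase that edits *Apob* RNA, was at 45.46, 31.47 and 19.51 FPKM in the OP mice, against 12.33, 36.28 and 21.02 FPKM in the OR mice. OP mouse 1 and OR mouse 2 were highest, and the lowest mouse was OR mouse 1. The means were 32.1 ± 13.0 FPKM in OP and 23.2 ± 12.1 FPKM in OR mice (SD, n = 3 each), with an exact permutation p = 0.5. On the limma scale the log2 fold change was 0.50, with a 95% interval from -0.48 to 1.48 and an adjusted p of 0.945. Gene-level FPKM values do not show how much of the *Apob* RNA was edited.

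*Mttp* varied less than the genes above. Its levels were 0.74, 0.48 and 1.26 FPKM in the OP mice, against 0.87, 0.86 and 0.85 FPKM in the OR mice. The OR mice were nearly equal, while the OP mice held both the highest and the lowest value. The means were 0.827 ± 0.397 FPKM in OP and 0.860 ± 0.0100 FPKM in OR mice (SD, n = 3 each), with an exact permutation p = 1. Limma gave a log2 fold change of -0.05, with a 95% interval from -0.50 to 0.41 and an adjusted p of 0.974. It was 0.09 without OP mouse 2 and 0.010 with median-of-ratios scaling.

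*Mogat2* and *Dgat2*, which are adjacent on chromosome 7 in the RefSeq annotation, encode acyltransferases of the same family. The levels of *Mogat2* were 8.24, 2.09 and 3.27 FPKM in the OP mice, against 3.30, 7.89 and 2.99 FPKM in the OR mice. OP mouse 1 and OR mouse 2 were nearly equal and above the other 4 mice. The means were 4.53 ± 3.26 FPKM in OP and 4.73 ± 2.74 FPKM in OR mice (SD, n = 3 each), with an exact permutation p = 0.9. The limma log2 fold change of *Mogat2* was -0.11, with a 95% interval from -1.20 to 0.99 and an adjusted p of 0.977, and single mice decided its sign. It was -0.56 without OP mouse 1, 0.23 without OP mouse 2, 0.26 without OR mouse 2 and 0.011 with median-of-ratios scaling of all 6 mice.

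The levels of *Dgat2* were 241.91, 71.60 and 74.84 FPKM in the OP mice, against 48.26, 115.43 and 61.42 FPKM in the OR mice. OP mouse 1 was highest and OR mouse 2 next, with overlap between the groups. The means were 129 ± 97.4 FPKM in OP and 75.0 ± 35.6 FPKM in OR mice (SD, n = 3 each), with an exact permutation p = 0.5. Without OP mouse 1 the OP mean was 73.2 FPKM. The limma log2 fold change of *Dgat2* was 0.63, with a 95% interval from -0.56 to 1.83 and an adjusted p of 0.945, and it was 0.06 without OP mouse 1.

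*Dgat1*, the other enzyme of the last step, was the steadiest of the 10 genes, with a highest level 1.47 times the lowest. Its levels were 39.18, 35.61 and 31.38 FPKM in the OP mice, against 31.29, 29.32 and 26.63 FPKM in the OR mice. Every OP mouse was above every OR mouse, by a margin of 31.38 against 31.29 FPKM at the closest. The means were 35.4 ± 3.90 FPKM in OP and 29.1 ± 2.34 FPKM in OR mice (SD, n = 3 each), with an exact permutation p = 0.1, the smallest possible. On the limma scale the log2 fold change was 0.27, with a 95% interval from -0.05 to 0.60 and an adjusted p of 0.945. The groups overlapped under all 3 other scalings, that is median-of-ratios, a common total (TPM) and centring on the epithelial markers.

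Of the genes tested among the 10, *Apoe* had the largest log2 fold change. Its levels were 107.64, 77.88 and 220.49 FPKM in the OP mice, against 229.73, 233.19 and 217.60 FPKM in the OR mice. OP mice 1 and 2 were below every OR mouse, while OP mouse 3 lay among the OR mice. The means were 135 ± 75.2 FPKM in OP and 227 ± 8.19 FPKM in OR mice (SD, n = 3 each), with an exact permutation p = 0.2. The limma log2 fold change of *Apoe* was -0.88, with a 95% interval from -1.68 to -0.08, an unadjusted p of 0.0354 and an adjusted p of 0.945. The estimate depended on single OP mice. It was -0.55 with an unadjusted limma p of 0.0947 without OP mouse 2, and -1.30 with an unadjusted limma p of 0.000255 (adjusted 0.324) without OP mouse 3. With median-of-ratios scaling it was -0.74 with an unadjusted limma p of 0.0585, and every OP mouse then lay below every OR mouse. *Apoe* took between 21.2% and 64.2% of the summed FPKM of the 10 genes, with the lowest share in OP mouse 1, where *Dgat2* took 47.6%.

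Most macrophage markers were lower in OP mice, as *Apoe* was. Of the 11 markers tested, 10 were lower in OP mice and 8 of them at an unadjusted limma p below 0.05, with a median log2 fold change of -0.88. Of all genes tested, 70.1% were lower, and 3.53% were lower at an unadjusted limma p below 0.05. With median-of-ratios scaling 9 of the 11 markers were lower, 7 of them at that p, beside 48.0% of all genes lower. Without OP mouse 2, 9 of the 11 were lower, 4 of them at an unadjusted limma p below 0.05, and the median was -0.67. The other 2 were higher, 1 of them at that p. *Mertk* was then above every OR mouse, at 48.04 and 41.72 FPKM against 32.85, 29.14 and 21.78. Of all 13405 genes tested without OP mouse 2, 68.7% were lower, and 615 were lower at that p. None of the 11 markers was at 0 in all mice, and their summed level ran from 106 to 299 FPKM in OP mice and from 214 to 278 FPKM in OR mice. *C1qa*, *C1qb* and *C1qc*, the subunits of complement C1q and a hallmark of tissue macrophages, together had 39.2, 27.6 and 76.3 FPKM in the OP mice, against 81.8, 107 and 92.1 FPKM in the OR mice. Divided by this sum, *Apoe* was at 2.74, 2.82 and 2.89 in the OP mice, against 2.81, 2.17 and 2.36 in the OR mice. The mean ratio was 2.82 ± 0.0724 in OP and 2.45 ± 0.327 in OR mice (SD, n = 3 each), with an exact permutation p = 0.2 on the log2 scale. The C1q genes were chosen as denominator after their values were seen, and *C1qc* is among the genes closest to *Apoe* over these mice. Divided by the sum of all 11 markers, in which *Lyz2* and *Mertk* weigh most, *Apoe* was at 0.546, 0.734 and 0.737 in the OP mice, against 1.07, 0.839 and 0.918 in the OR mice. Every OP mouse was then below every OR mouse, with an exact permutation p = 0.1, so the direction of the ratio depended on the denominator. With each marker alone as denominator, the ratio was higher in OP mice for 7 and lower for 4 of the 11. The part of macrophage content in the *Apoe* difference was not tested. Fibroblast markers were lower in OP mice as well, 6 of 6, with 4 at an unadjusted limma p below 0.05, summing to between 54.0 and 95.9 FPKM in OP mice and between 157 and 310 FPKM in OR mice. Both fibroblast counts were the same with median-of-ratios scaling and without OP mouse 2.

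**Figure D2:**
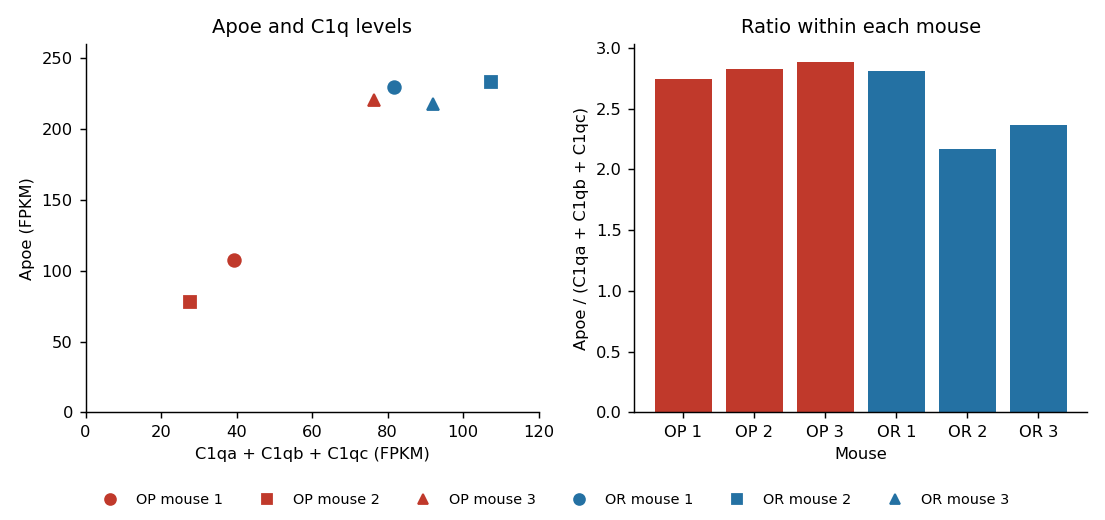
Left, *Apoe* against the sum of *C1qa*, *C1qb* and *C1qc* (both in FPKM, linear axes) in each OP (red) and OR (blue) mouse. Right, the ratio of *Apoe* to that sum, 1 bar per mouse, which lies between 2.17 and 2.89, while *Apoe* itself ranges from 77.88 to 233.19 FPKM. With all 11 macrophage markers as denominator the ratio is lower in every OP mouse.

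Over the 10 genes, 8 passed the filter and were tested, and limma called 0 of them, a call being an adjusted p below 0.2 and a fold change outside 0.83 to 1.2. Of all 13520 genes tested, 0% were called higher and 0.0222% lower in OP mice. At an unadjusted p below 0.05, 0 of the 8 genes were higher, against 0.503% of all genes, and 1 (*Apoe*) was lower, against 3.53%. Limma without a trend in the spread also called 0 of them and had the same 1 at an unadjusted p below 0.05. Groups without overlap were found with OP above OR for 1 gene (*Dgat1*), against 1.63% of all genes, and with OP below OR for 0, against 6.81%. The 8 log2 fold changes, of which 5 were above 0, had a median of 0.27, beside -0.10 over all genes. With median-of-ratios scaling these medians were 0.38 and 0.01, and the gene without overlap was *Apoe*, lower in OP mice, in place of *Dgat1*. The 95% intervals of *Apoa1*, *Mogat2* and *Dgat2* each spanned more than 2 log2 units.

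**Figure D3:**
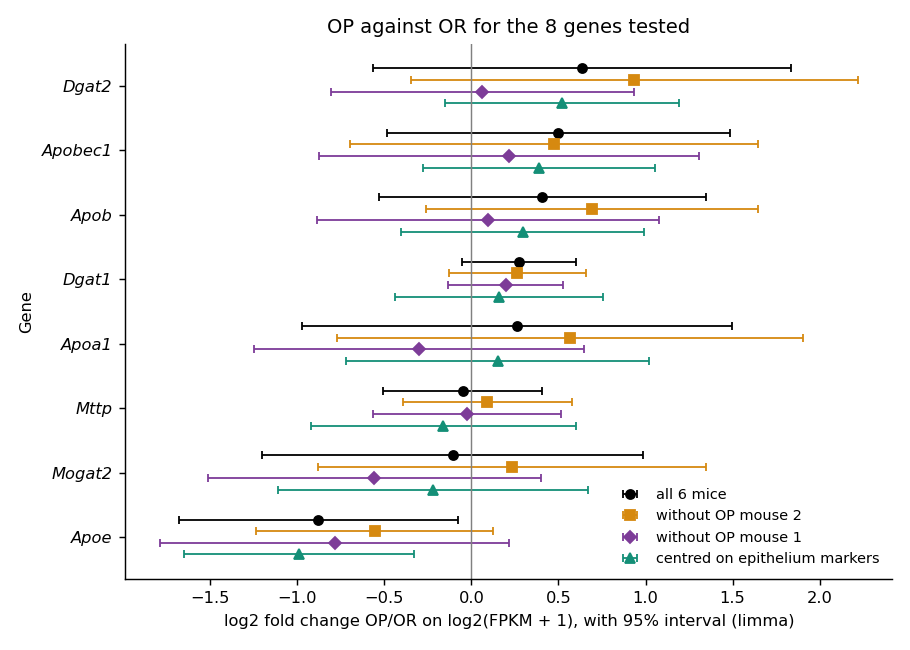
Log2 fold change (OP/OR, on log2(FPKM + 1)) with its 95% limma interval for the 8 genes tested, in all 6 mice, without OP mouse 2, without OP mouse 1 and with each mouse centred on the epithelial markers. With all 6 mice, the interval of *Apoe* is the only one that leaves out 0, and it includes 0 without OP mouse 1 and without OP mouse 2.

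The spread within the groups had a common pattern. OP mouse 1 and OR mouse 2 were the 2 highest mice for 6 of the 10 genes, namely *Apoa1*, *Apoa4*, *Apob*, *Apobec1*, *Mogat2* and *Dgat2*. Among the genes tested by limma this was so for 5 of 8, beside 5.13% of all 13520 genes. It was so for 6 of the 14 epithelial markers, 4 of 15 other enzymes of triglyceride synthesis and 3 of 22 genes of lipid handling and export. It was so for 0 of 9 other apolipoproteins, 0 of 5 editing cofactors, 0 of 17 receptors, lipases and efflux genes, 1 of 14 transcription factors and 0 of 11 macrophage markers. *Krt20*, a keratin of mature surface cells, was at 1300, 937 and 406 FPKM in the OP mice, against 403, 976 and 500 in the OR mice. The pattern was noticed in these data and is a description of these mice. The 1 transcription factor with the pattern was *Creb3l3*, a regulator of apolipoprotein and other lipid genes named here after its values were seen, which was at 148.5, 23.04 and 9.31 FPKM in the OP mice, against 3.33, 72.37 and 5.83 FPKM in the OR mice. Its highest mice were OP mouse 1 and OR mouse 2 too.

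**Figure D4:**
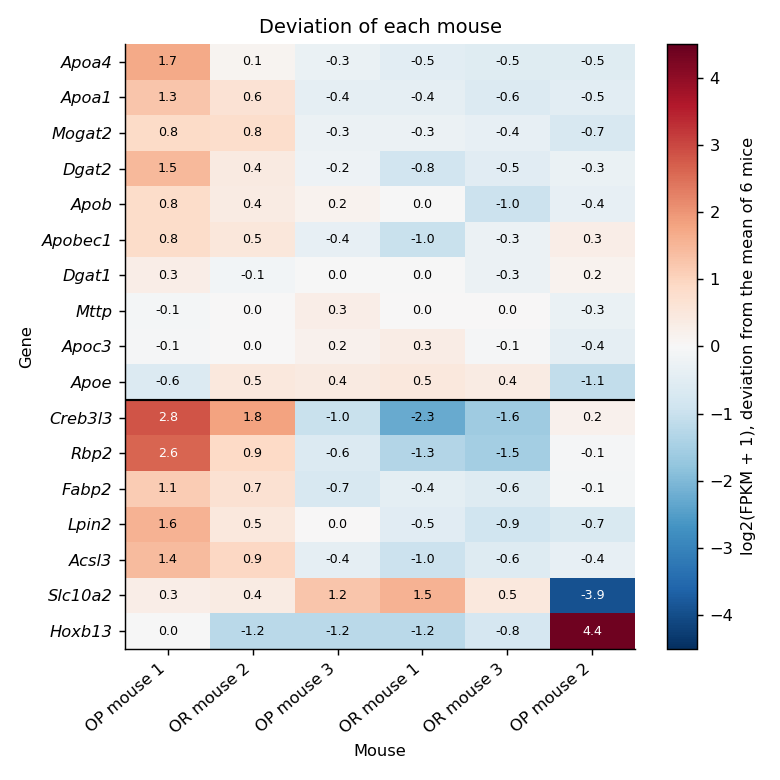
Deviation of each mouse from the mean of the 6 mice on log2(FPKM + 1), for the 10 genes (above the line) and for genes named after their values were seen (below it). Columns are ordered to place OP mouse 1 and OR mouse 2 side by side and OP mouse 2 last, where *Slc10a2* is low and *Hoxb13* high.

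Ratios between genes of the same mouse do not depend on how a mouse was scaled. *Mogat2*/*Dgat2* was 0.0341, 0.0292 and 0.0437 in the OP mice, against 0.0684, 0.0684 and 0.0487 in the OR mice. Every OP mouse was below every OR mouse, by 0.80 log2 units in the mean, with an exact permutation p = 0.1, the smallest possible, and an adjusted p of 0.5 over 5 ratios. Leaving out each mouse in turn kept the difference between -0.96 and -0.66. *Dgat2*/*Dgat1* was 6.17, 2.01 and 2.38 in the OP mice, against 1.54, 3.94 and 2.31 in the OR mice, with an exact permutation p = 0.6. The largest value again belonged to OP mouse 1 and the next to OR mouse 2. *Apobec1*/*Apob* ran from 0.401 to 1.34 over the 6 mice, with both ends in OR mice and an exact permutation p = 1. *Mttp*/*Apob* and *Apoa4*/*Apoa1* gave exact permutation p = 0.4 and p = 0.6. *Apoc3*/*Apoa1* was not tested because *Apoc3* was listed at 0 in OP mouse 2.

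**Figure D5:**
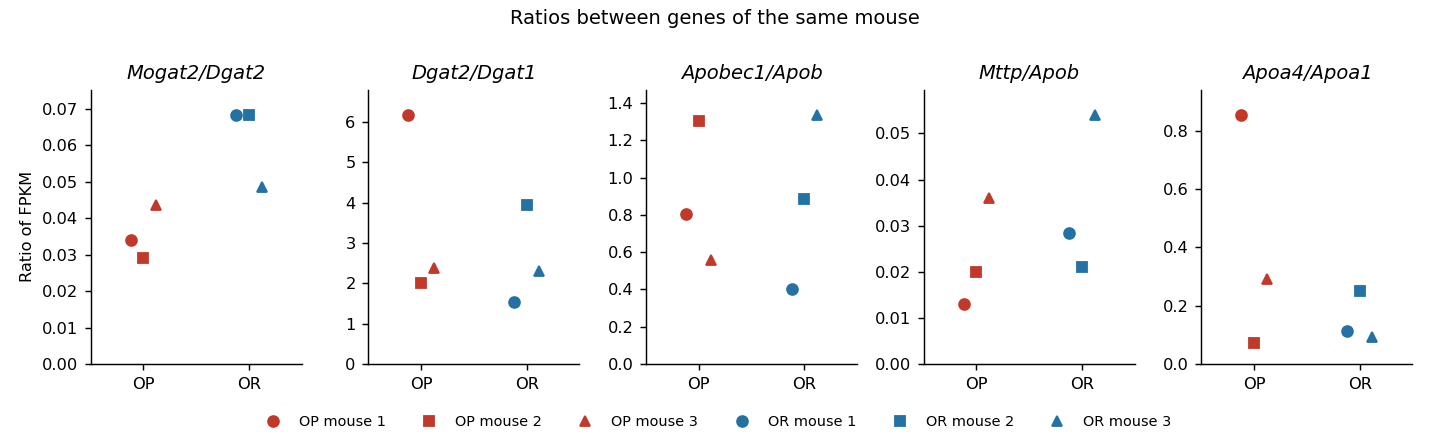
Ratio of the FPKM of 2 genes within each mouse (linear axes from 0), for OP (red) and OR (blue) mice, 1 point per mouse. The groups separate only for *Mogat2*/*Dgat2*, where the OP mice lie at 0.0437 or lower and the OR mice at 0.0487 or higher.

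The remaining genes of the pathway were described by lists. Directions within a list read against all genes tested, of which 70.1% were lower in OP mice, or 48.0% with median-of-ratios scaling. At an unadjusted limma p below 0.05, 0.503% of all genes were higher and 3.53% lower. Of 13 other apolipoprotein genes, 9 were tested, 7 were higher and 2 lower in OP mice, and 1 of the latter had an unadjusted limma p below 0.05. That gene was *Apod*, a lipocalin, at 1.28, 2.00 and 2.35 FPKM in the OP mice, against 3.89, 3.73 and 3.70 in the OR mice, with a log2 fold change of -0.75 and an adjusted limma p of 0.826. *Saa1*, an acute-phase apolipoprotein, had the highest mean of the list at 1814 FPKM, with a log2 fold change of 0.85 and an adjusted limma p of 0.945. Of 17 other enzymes of triglyceride synthesis 15 were tested, 7 higher and 8 lower, and of these 0 had an unadjusted p below 0.05. *Agpat3* (20.7 FPKM) and *Acsl4* (2.86 FPKM) had the lowest unadjusted limma p, 0.101 and 0.124. *Agpat2* (168 FPKM) and *Acsl3* (100 FPKM) were the most abundant, and *Acsl3*, an acyl-CoA synthetase, was highest in OP mouse 1 (221 FPKM) and OR mouse 2 (158 FPKM).

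All 22 genes of lipid handling and lipoprotein export were tested, 7 higher and 15 lower in OP mice. *Cd36*, a fatty acid transporter that capillary endothelium, adipocytes and macrophages also express, was the 1 gene lower at an unadjusted limma p below 0.05, at 5.94, 1.90 and 7.45 FPKM in the OP mice, against 14.37, 10.22 and 12.54 in the OR mice. *Plin2*, which coats lipid droplets, was higher in every OP mouse, at 140.66, 86.52 and 124.68 FPKM against 83.26, 86.20 and 85.01, with an adjusted limma p of 0.945. The closest values of *Plin2* were 86.52 and 86.20 FPKM, and 1.63% of all genes had OP above OR without overlap. With median-of-ratios scaling or centring on the epithelial markers, 0 genes of this list did. *Fabp2*, the intestinal fatty acid binding protein, was the most abundant of the list at 1228 FPKM. It was highest in OP mouse 1 at 2393 FPKM and OR mouse 2 at 1748 FPKM. *P4hb*, the other subunit of the MTTP transfer complex, followed at 237 FPKM, with a log2 fold change of -0.08. All 5 editing cofactors of APOBEC1 were tested, 1 higher and 4 lower, with 0 that had an unadjusted p below 0.05, and *Hnrnpab*, *Rbm47* and *Syncrip* averaged 157, 57.3 and 26.9 FPKM.

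Of 20 lipoprotein receptors, lipases and efflux genes 17 were tested, 3 higher and 14 lower in OP mice. Those at an unadjusted limma p below 0.05 were both lower, namely *Pltp*, the phospholipid transfer protein, with a log2 fold change of -1.03, and *Gpihbp1*, which holds lipoprotein lipase on capillaries, with -0.83. Of all genes, 3.53% were lower at that p. *Pltp* was at 6.20, 4.89 and 8.68 FPKM in the OP mice, against 11.12, 14.05 and 18.18 in the OR mice, without overlap. Of all genes, 6.81% had OP below OR without overlap. Adipocyte markers were lower in OP mice for 7 of 8 (median log2 fold change -0.95), and summed to between 12.8 and 83.0 FPKM in OP and between 46.3 and 284 FPKM in OR mice, while *Adipoq* was at 0 in OP mouse 2. Without OP mouse 2, 6 of the 8 were lower (median -0.32), and 1 was higher at an unadjusted limma p below 0.05. Without OR mouse 1, 6 were lower as well, with a median of -0.38. The part of the adipocyte markers, and that of the macrophage and fibroblast markers, in the values of *Cd36*, *Pltp* and *Gpihbp1* was not tested. The most abundant genes of the list were the receptors *Lsr* (35.3 FPKM) and *Lrp1* (32.8 FPKM), with log2 fold changes of -0.42 and -0.10. Of 16 transcription factors of lipoprotein genes 14 were tested, 7 in each direction, and 0 had an unadjusted p below 0.05. The lowest unadjusted limma p were 0.133 for *Ppard* and 0.195 for *Hnf4g*, and the highest means were 310 FPKM for *Hnf4a* and 109.8 FPKM for *Nr1h4*. In none of the 6 lists was a gene called at an adjusted limma p below 0.2, with or without OP mouse 2. Without OP mouse 2, the genes at an unadjusted p below 0.05 numbered 2 higher and 1 lower for the other apolipoproteins, 1 and 2 for lipid handling and export, 0 and 1 for receptors, lipases and efflux, 0 and 1 for the editing cofactors, 1 and 1 for the transcription factors, and 0 and 0 for the enzymes. Of all 13405 genes tested without that mouse, 172 were higher and 615 lower at that p. The medians of the lists ran from -0.28 for receptors, lipases and efflux to 0.25 for the other apolipoproteins, beside -0.10 over all genes. With median-of-ratios scaling the genes of lipid handling and export were 16 higher and 6 lower.

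Genes with patterns like those of *Apoa4*, the most variable of the 10 genes on the log2 scale, and of *Apoe* were ranked by Pearson's r of log2(FPKM + 1) over the 6 mice. For *Apoa4* the closest were *Necap2* (r = 0.997), *Prelid1* (0.995), *Slc19a2* (0.988), *Rmc1* (0.988) and *Arhgap27* (0.987), and 192 of 13520 genes had an r above 0.9. OP mouse 1 was the highest mouse for each of these 5 genes, as for *Apoa4*. For *Apoe* the closest were *Prg2* (0.993), *C1qc* (0.991), *Rarres2* (0.990), *Gna12* (0.990) and *Clec4a2* (0.989), and 283 of 13519 genes had an r above 0.9. All 5 were lower in OP mice 1 and 2 than in the other 4 mice, as *Apoe* was. *Prg2* (0 to 1.22 FPKM) and *Clec4a2* (0.40 to 1.07 FPKM) were near the floor of the values. These r values compare genes over 6 libraries and share each library's scaling.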

How the data were processed

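Colon messenger RNA of 6 mice was sequenced as strand-specific libraries on the DNBSEQ platform. Per the paper's methods, the authors filtered reads with SOAPnuke, aligned them to a mouse reference gene set with Bowtie2 and quantified genes with RSEM. The submitters' processing notes also name HISAT2 2.0.4, and the versions given for Bowtie2 and RSEM differ between sources. The deposited table holds FPKM values of 17778 genes with 2 decimals, each mouse in its own column. FPKM keep no read totals, so depth and counting error are unknown, and DESeq2, used in the study, was not run.

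The 13520 genes that reached 0.5 FPKM in 3 or more mice entered the test. Limma-trend (limma 3.58.1 in R 4.3.3) compared the groups on log2(FPKM + 1), a scale that understates the change of low genes, with Benjamini-Hochberg adjustment over all genes. Calls needed an adjusted p below 0.2 and a fold change outside 0.83 to 1.2. Single genes and ratios were compared by two-sided exact permutation tests (SciPy 1.17.1, 20 arrangements). Groups and sample numbers, used here as mouse numbers, came from the labels. The labels number the samples of each group, and each sample was taken as 1 mouse. The p-values measure the spread between these samples. The script was tested on simulated data. The members and lists were chosen with earlier results of these data known. Named genes were all 10, and of each list up to 4, the 2 with the lowest unadjusted p and the 2 with the highest mean FPKM, while the genes of the mouse pattern, the marker genes and the C1q denominator were chosen after values were seen. Promoters and gene order came from RefSeq GRCm38.p6, which is not the authors' build (GRCm39), so only the promoters carry coordinates. Alternatives were other scalings (median-of-ratios, TPM, epithelial centring), pseudocount, filters, sample weights, a mouse-number block, call thresholds and leaving out mice.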

Additional observations from a re-analysis of the deposited data

How the results depend on the processing

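No gene of the 10 was called under any of the alternatives run. The median log2 fold change of the genes tested stayed above 0, but fell from 0.27 to 0.020 without OP mouse 1 and to 0.026 without OR mouse 3. Across these alternatives the *Apoe* estimate ran from -1.30 to -0.55 with adjusted limma p from 0.324 to 1.00, and *Dgat1*, *Dgat2*, *Apob* and *Apobec1* kept estimates above 0. The lowest estimates of these genes were 0.16, 0.064, 0.033 and 0.13, in that order. The number of genes called lower in OP mice, 3, became 0 with median-of-ratios scaling, TPM, no filter, a pseudocount of 0.1, genes reaching 1 FPKM in every one of the 6 mice, an adjusted p below 0.05, or OP mouse 1 and OR mouse 2 left out together. It became 15 with epithelial centring and 5 with sample weights, and 0 to 1 when each mouse was left out. Genes of the 10 at an unadjusted p below 0.05, 1 with all 6 mice, became 0 with median-of-ratios scaling and with those 2 mice out, and 0 to 2 when each mouse was left out. Those without overlap, 1, became 0 with TPM or epithelial centring and 2 with those 2 mice out, and 1 to 3 when each mouse was left out. Separation was commoner among all genes too when mice were left out. With those 2 mice out, 1331 of 13292 genes had OP above OR without overlap, and 2855 had OP below OR. Without OP mouse 3, where the count was 3, these were 599 and 3084 of 13340 genes. With all 6 mice they were 220 and 921 of 13520. The rise was therefore not particular to the 10 genes. With median-of-ratios scaling 1 of the 10 was without overlap as well, but the gene was *Apoe* and not *Dgat1*. The log2 ratio of *Apoe* to C1q, 0.21 higher in OP mice, reversed to -0.49 with all macrophage markers summed, an alternative chosen after seeing the data. The estimate for *Mttp* reversed to 0.010 and that for *Mogat2* to 0.011 with median-of-ratios scaling. With each mouse left out, the estimates that changed sign ran from -0.30 to 0.65 for *Apoa1*, from -0.21 to 0.092 for *Mttp* and from -0.56 to 0.26 for *Mogat2*. The cause of these changes was not tested. Leaving out OP mouse 1 with OR mouse 2, and each mouse for the ratios, was chosen after seeing the data.

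With the mouse number as a replicate block, 0 genes were called lower and *Apoe* had an unadjusted limma p of 0.0176 and an adjusted p of 0.999. Deviations of same-numbered mice from their group means correlated across genes at -0.144, -0.157 and 0.0709. Only in OP mouse 3 and OR mouse 3 was the correlation above 0, while OP mouse 1 correlated best with OR mouse 2 (0.537). These values do not show a pairing by number. They cannot exclude one, because the deviations of the 3 mice of a group are tied to each other. FPKM without read totals limit what can be said of *Apoc3* in all mice and of the lowest *Apoa4* values, which carry few digits above the last decimal given.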

Other observations

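Some apolipoprotein genes outside the 10 had 1 mouse well away from the other 5. *Apoc1* and *Apoc2* were named after their values were seen. *Clu*, a chaperone apolipoprotein also called apolipoprotein J, was at 66.0 FPKM in OP mouse 3 and between 10.52 and 17.53 FPKM in the other 5 mice. Every OP mouse was above every OR mouse for *Clu*, by 16.46 against 16.35 FPKM at the closest. Its log2 fold change was 0.98, with an unadjusted limma p of 0.089 and an adjusted p of 0.945. Such separation was found for 1.63% of all genes, and for 0 genes of its list with epithelial centring. *Apoc2*, the activator of lipoprotein lipase, was at 9.41 FPKM in OP mouse 2 and between 0.61 and 2.55 FPKM in the others. *Apoc1*, the neighbour of *Apoe* in the RefSeq annotation, was at 5.47 FPKM in OR mouse 1 and between 0.73 and 1.48 FPKM in the others, and did not share the low values of *Apoe* in OP mice 1 and 2. *Saa3*, an acute-phase apolipoprotein, differed from this in that mice lay apart at both ends, at 5.01 FPKM in OP mouse 2, 15.75 in OR mouse 3 and 166.79 in OP mouse 1, with the other 3 between 52.25 and 59.43 FPKM.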
